A study of Mus musculus with 20 samples.

Results

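Cells of the B16 Bcr-Abl+ murine line given the D361E form of p65/RelA were compared with cells of the same line given p65 as a pair of pieces, fragment 1-361 and fragment 362-549. The members are 8 of the 20 one-colour arrays of the series: the 3 arrays labelled D361E and the 5 labelled 1-361+362-549. All 8 hold total RNA of cells that carried the Bcr-Abl background and were grown in DMEM with serum, and 3 arrays of the same line with void plasmid, labelled Blanck, serve below as a reference. The strain field reads mouse C3H eOuJ on every array. In D361E, residue 361 is changed from aspartate to glutamate, and the design text calls this form non-cleavable, so the comparison sets p65 that cannot be cut against the mimic of cut p65. The labels do not say which promoter drove the plasmids, whether the transfection was transient or stable, how many cells took them up, or how long after it RNA was taken. They also do not say that the arrays of a group came from separate cultures, so p-values measure the spread between these samples, which may be technical.

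p65, encoded by Rela, is a subunit of the transcription factor NF-kB. Its N-terminal part holds the Rel homology domain, which binds DNA and other NF-kB subunits, and its C-terminal part holds the transactivation domains, which recruit the transcription machinery. In resting cells NF-kB is held in the cytoplasm by the IkB proteins, and the genes it switches on include those of its own inhibitors (Nfkbia, encoding IkB-alpha, and Tnfaip3, encoding A20), of the other NF-kB subunits Relb and Nfkb2, and of chemokines such as Cxcl1 and Cxcl10. B16 is a mouse melanoma line, and Bcr-Abl is an oncogenic tyrosine kinase that drives the RAS and ERK pathway and STAT5.

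The arrays were even in quality. Between 54.0% and 55.8% of the spots that are not controls were well above background on the 8 arrays, no spot was saturated, and the 75th percentile of the signal differed at most 1.26-fold among them. The 20 arrays lay on 5 slides scanned on 1 day. Levels below are log2 signals minus the array's own 75th percentile, so that 0 is the level of the 75th percentile and differences of 1 are 2-fold, and levels of different genes are not compared, since each probe binds with its own efficiency. The identity of the line was checked with melanocyte genes: all 20 of the list passed the filter on dim probes, and 19 of them, all but Ednrb and with Mitf, Tyr, Dct, Pmel and Sox10 among them, were well above background on all 8 arrays.

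The 5 both-fragment arrays did not form 1 cluster. Arrays 1 to 3 lay at root-mean-square log2 distances of 0.505 to 0.574 from each other, and arrays 4 and 5 lay 0.518 apart, whereas the 6 distances between these sets ran from 0.734 to 0.898. The D361E arrays lay 0.587 to 0.690 from each other and 0.664 to 0.936 from the both-fragment arrays, so the distance between the sets of both-fragment arrays was as large as that to D361E. The labels give the 5 arrays 1 name, and the split was seen in the values, not in the labels. It did not follow the slide, since both-fragment arrays 1 and 4 shared a slide. Genes outside the NF-kB subunit and inhibitor lists were therefore picked for description mainly where all 5 arrays agreed. Where it matters, results are also given against arrays 1 to 3 alone and against arrays 4 and 5 alone. Counts of list members are of called genes, whether or not all 5 arrays agreed, unless stated otherwise.

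To place the NF-kB results on the genome, the 250 bases upstream of the transcription start were taken from the RefSeq promoter table (GRCm38.p6) for NF-kB-controlled genes that were higher with D361E. They are shown because they hold matches to the kB consensus, the site NF-kB dimers bind. Each is written 5′ to 3′ on the gene's own strand, and capitals mark the matches, merged where they overlap. For Tnfaip3 and Nfkb2, which have several listed starts, the entry with most matches is shown.
Tnfaip3, chr10:19015411-19015660, minus strand: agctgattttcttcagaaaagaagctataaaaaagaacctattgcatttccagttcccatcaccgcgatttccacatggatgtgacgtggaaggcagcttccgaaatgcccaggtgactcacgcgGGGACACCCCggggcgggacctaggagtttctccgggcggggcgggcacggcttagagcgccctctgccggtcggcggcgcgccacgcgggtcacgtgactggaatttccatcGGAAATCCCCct
Nfkbia, chr12:55492648-55492897, minus strand: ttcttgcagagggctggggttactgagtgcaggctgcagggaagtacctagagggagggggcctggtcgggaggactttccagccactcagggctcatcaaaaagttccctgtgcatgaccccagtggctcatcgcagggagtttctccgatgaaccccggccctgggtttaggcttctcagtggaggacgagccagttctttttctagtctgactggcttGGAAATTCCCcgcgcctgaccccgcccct
Nfkb2, chr19:46304487-46304736, plus strand: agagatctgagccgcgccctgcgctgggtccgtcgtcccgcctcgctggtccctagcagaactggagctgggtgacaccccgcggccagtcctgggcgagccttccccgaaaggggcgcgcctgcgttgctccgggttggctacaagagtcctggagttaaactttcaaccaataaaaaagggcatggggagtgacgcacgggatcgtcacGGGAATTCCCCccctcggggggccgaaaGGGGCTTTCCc
Tnip1, chr11:54962941-54963190, minus strand: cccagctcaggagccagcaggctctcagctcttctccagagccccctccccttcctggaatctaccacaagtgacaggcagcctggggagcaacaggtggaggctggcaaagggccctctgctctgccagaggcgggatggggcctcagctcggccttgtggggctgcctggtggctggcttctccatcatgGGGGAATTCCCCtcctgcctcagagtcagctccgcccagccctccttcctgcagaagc
Cxcl1, chr5:90890995-90891244, plus strand: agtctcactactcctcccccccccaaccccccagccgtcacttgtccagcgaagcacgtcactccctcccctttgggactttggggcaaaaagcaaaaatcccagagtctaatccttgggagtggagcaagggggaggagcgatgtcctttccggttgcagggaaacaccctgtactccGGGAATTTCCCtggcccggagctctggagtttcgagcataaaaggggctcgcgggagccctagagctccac
Cxcl10, chr5:92348890-92349139, minus strand: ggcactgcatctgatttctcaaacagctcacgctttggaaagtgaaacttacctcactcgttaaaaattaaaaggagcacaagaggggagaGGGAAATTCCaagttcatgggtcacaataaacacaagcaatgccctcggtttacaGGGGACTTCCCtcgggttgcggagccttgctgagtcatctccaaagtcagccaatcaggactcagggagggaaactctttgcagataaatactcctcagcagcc

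A match to the kB consensus on either strand was found in 7.3% of all 32851 promoters in the table. Counted by gene, with a gene positive if any of its listed promoters held a match, the share was 10.3% of the 11034 tested genes that have a promoter entry. Among the NF-kB subunit and feedback genes called higher with D361E, 6 of the 7 with an entry held a match, and among those not called, 2 of 7 did. Relb and Ccl5 have no entry. Over all genes called without overlap, the share was 11.1% of those higher with D361E and 12.8% of those lower. Among genes for which every array of one group lay at least 2-fold from every array of the other, 15 of 70 genes higher with D361E (21.4%) and 7 of 80 genes lower (8.8%) held a match. These are counts of letters in a window, and binding was not measured.

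Across the transcriptome, 18738 genes passed the filter, of which 13823 carried a gene symbol. A gene was called when its adjusted p from limma was under 0.05, as 3825 were (20.4%). With D361E, 1894 genes were higher (10.1%) and 1931 were lower (10.3%) than with both fragments. A further condition, that all 5 both-fragment arrays lay on the same side of all 3 D361E arrays, was met by 1612 of the higher genes (8.6% of those tested) and 1660 of the lower ones (8.86%). In all, 20.9% of the tested genes did not overlap between the groups, whether called or not. Lying on the same side did not mean a like level on all 5 both-fragment arrays. In 1681 of the 3272 called genes without overlap, the means of the both-fragment sets differed by more than the gap between the groups. That gap is taken between the nearest arrays of the groups. The sets differed at least 2-fold in 207 of these genes, beside 1898 of all 18738. Genes for which every array of one group lay at least 2-fold from every array of the other were fewer: 90 were higher with D361E (0.48%) and 119 were lower (0.635%). The differences were thus spread evenly over both directions, and most were small: the median size among called genes was 0.45 on the log2 scale.

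**Figure D1:**
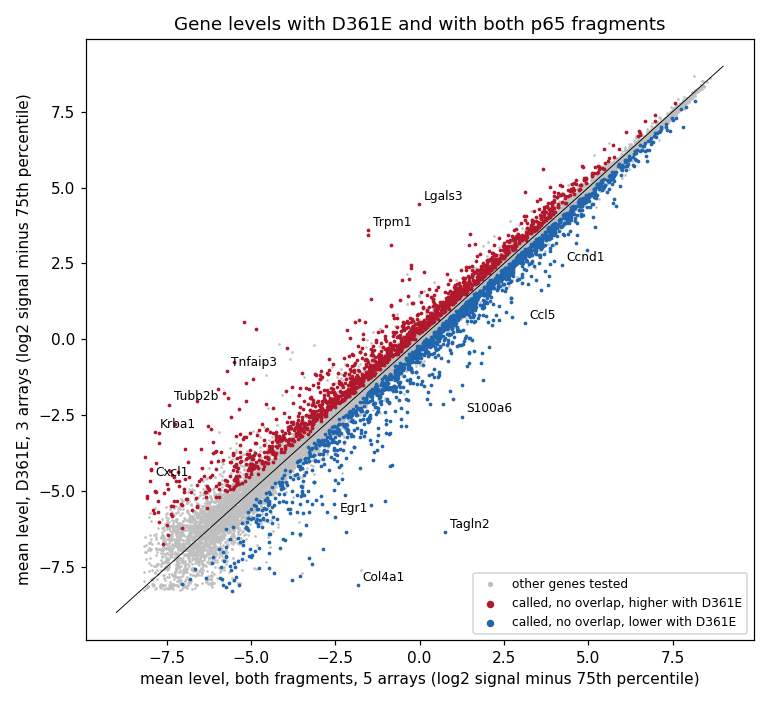
Mean level of each gene on the 3 D361E arrays (vertical axis) against its mean on the 5 both-fragment arrays (horizontal axis), both as log2 signal minus the array's 75th percentile. Red and blue points are the 1612 genes higher and the 1660 genes lower with D361E that were called and did not overlap between the groups; the line marks equal levels, and 12 genes described in the text are named, such as Tnfaip3 above the line and Col4a1 below it.

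That balance depends on the scaling. After median scaling of the arrays, 775 genes were called higher and 1212 lower, so that 39.0% of the calls were higher against 49.5% here, and with no scaling between arrays the counts were 1059 and 1824 (36.7% higher). Against void plasmid, 13.5% of genes were called with D361E and 24.6% with both fragments, and those comparisons share the 3 void arrays. With slides taken apart, 3823 of the 3825 called genes kept their direction between the arrays on the slide that holds D361E array 3 with both-fragment arrays 1 and 4, and 3790 did between D361E array 2 and both-fragment array 5. These arrays are also part of the fit. For the 3272 called genes that did not overlap between the groups, the direction within a slide was fixed in advance. The counts are therefore no separate check on the slide.

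Small differences near the threshold depended most on these choices. Among the genes described below, median scaling ended the calls of Bak1, Ccnb1, Ccnb2, Ccnd3, Cflar, Gadd45b, Gpnmb, Hmox1, Ier3, Ikbkb, Irf1, Junb, Klf6, Lgals4, Lgals8, Lgals9, Lss, Ripk1, Rnf31, Rtp4, Sdf2l1, Tank and Traf5 (adjusted p = 0.0649 to 0.54). With no scaling, the calls of Bak1, Ccnb1, Ccnd3, Cflar, Ier3, Ikbkb, Lgals4, Lgals8, Tank and Trp53inp1 were lost (adjusted p = 0.0635 to 0.428). A fit of only the 8 arrays lost all those named for median scaling but Gpnmb and Klf6, and in addition Acat2, Casp4, Chac1, Csf1, Fn1, H2-K1, Ikbke, Lgals3, Pla2g4a, Rsad2, Trp53inp1 and Vldlr (adjusted p = 0.0523 to 0.227). Counts of list members called are given below beside the shares over all genes, 10.1% higher and 10.3% lower. Their values after median scaling are added where these differ much. In several lists fewer members were also free of overlap between the groups, beside 8.6% of all genes higher and 8.86% lower. Of those called higher, these were 9 of 12 cholesterol, 3 of 5 IKK and TNF receptor and 2 of 3 MHC class I genes. Of those called lower, they were 9 of 11 p53, 7 of 9 cell cycle and 2 of 4 NRF2 genes. Among NF-kB survival genes 3 of 4 were free of overlap in each direction.

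Rela itself, the gene of the transfected protein, did not differ. Its level was 4.14, 4.35 and 4.26 on the D361E arrays and 4.35, 4.34, 4.28, 4.32 and 4.42 on the both-fragment arrays, a log2 difference of -0.09 ± 0.06 (SE, adjusted p = 0.371). The void arrays read 4.17, 4.14 and 4.19. The groups overlapped, and neither form raised the probe's signal clearly above void plasmid (D361E minus void 0.08, adjusted p = 0.521; both fragments minus void 0.18, adjusted p = 0.0512). Rela has 1 probe that passed the filter, and whether it lies within the plasmid inserts was not tested, so this reading checks neither the labels nor the amount of transfected p65.

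Of the other NF-kB subunits, Relb and Nfkb2 were higher with D361E. Relb, which pairs with the Nfkb2 product in the non-canonical branch of the pathway, read 0.97, 1.41 and 1.00 with D361E and -1.05, -0.93, -0.80, -0.70 and -0.76 with both fragments. The groups lay far apart, with a log2 difference of 1.98 ± 0.10 (SE, adjusted p = 2.15e-09, a 3.94-fold higher level). The void arrays, at 0.00, -0.12 and -0.03, fell between them: D361E stood 1.18 above void (adjusted p = 3.44e-06) and both fragments 0.80 below it (log2 difference -0.80, adjusted p = 3.08e-05).

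Nfkb2, the precursor of p52, read 0.93, 1.74 and 1.29 with D361E and 0.30, 0.15, 0.30, 0.58 and 0.62 with both fragments. All D361E arrays were above all both-fragment arrays (log2 difference 0.93 ± 0.17 SE, adjusted p = 0.000961). Nfkb1, the precursor of p50, overlapped between the groups, at -1.62 to -1.25 against -1.97 to -1.36, with a difference of 0.22 ± 0.15 (adjusted p = 0.369). Rel did not pass the filter. Thus 2 of the 4 measured subunit genes were called, both higher, beside 10.1% of all genes.

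Among the feedback inhibitors, 6 of 14 measured genes rose, beside 10.1% of all genes, and none fell. The median log2 difference was 0.29 beside -0.02 over all genes. The largest difference was that of Tnfaip3, which encodes the ubiquitin-editing enzyme A20 that shuts NF-kB signalling off. It read -1.31, -0.88 and -0.91 with D361E and -6.03, -5.65, -5.86, -5.71 and -5.34 with both fragments, where only 1 of the 5 arrays was well above background. The D361E arrays were all high and the both-fragment arrays all low, a difference of 4.69 ± 0.13 (SE, adjusted p = 1.63e-12) whose size is imprecise because the both-fragment signals lie near background. Void plasmid lay between, at -4.47, -4.39 and -4.42, so that D361E stood 3.39 above it (adjusted p = 4.74e-10) and both fragments differed from it by -1.29 (adjusted p = 4.03e-06).

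Nfkbia, whose product IkB-alpha retains p65 in the cytoplasm, read 3.03, 3.29 and 3.07 with D361E and 1.83, 1.69, 1.78, 1.39 and 1.52 with both fragments. The difference was 1.49 ± 0.10 (SE, adjusted p = 3.46e-08, 2.81-fold), and here the void arrays (1.49, 1.61 and 1.67) lay among the both-fragment arrays (both fragments minus void 0.05, adjusted p = 0.78). Nfkbie, encoding IkB-epsilon, read -0.40, -0.04 and -0.20 against -1.76, -1.72, -1.77, -0.87 and -0.84. All both-fragment arrays were lower, arrays 1 to 3 more so than 4 and 5 (log2 difference 1.18 ± 0.20 SE, adjusted p = 0.000556).

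Bcl3, an atypical IkB protein that works in the nucleus, read -2.93, -2.29 and -2.32 with D361E and -3.40, -3.85, -3.49, -3.67 and -3.59 with both fragments (difference 1.09 ± 0.14 SE, adjusted p = 5.09e-05). Tnip1, which encodes an A20-binding partner, read 4.20, 4.53 and 4.36 against 3.62, 3.49, 3.47, 3.81 and 4.06 (0.67 ± 0.11 SE, adjusted p = 0.000451). Neither gene overlapped between the groups, and for both the void arrays lay nearer to D361E (D361E minus void 0.35 for Bcl3, adjusted p = 0.178, and 0.19 for Tnip1, adjusted p = 0.404; both fragments minus void -0.73, adjusted p = 0.00134, and -0.49, adjusted p = 0.00479). Tank was higher by only 0.22 ± 0.07 (adjusted p = 0.0407), and leaving out either D361E array 1, 2 or 3 or both-fragment array 3, 4 or 5 ended that call (adjusted p up to 0.176). The other measured inhibitors, Nfkbib, Nfkbid, Nfkbiz, Tnip2, Cyld, Otud7b, N4bp1 and Zc3h12a, were not called, with differences from -0.21 to 0.65.

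**Figure D2:**
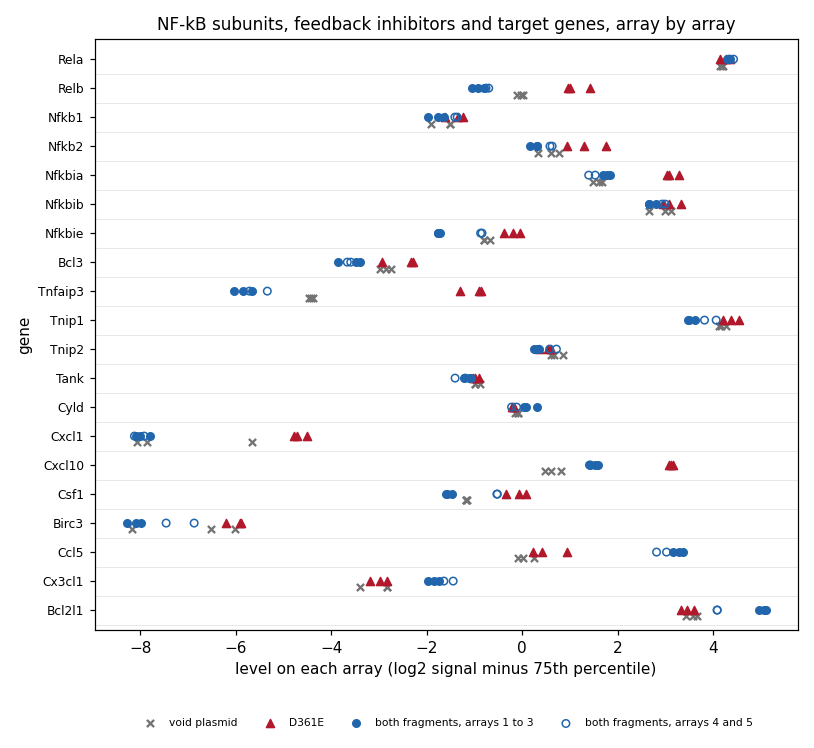
Level of 20 NF-kB subunit, inhibitor and target genes (rows) on each array (horizontal axis, log2 signal minus the 75th percentile); triangles are D361E, filled circles both-fragment arrays 1 to 3, open circles both-fragment arrays 4 and 5, and crosses void plasmid. Relb, Nfkbia and Tnfaip3 show the D361E arrays apart on the right, Ccl5, Cx3cl1 and Bcl2l1 show them on the left, and Rela overlaps.

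The inflammatory target genes moved in both directions. Of 29 listed, 12 passed the filter, 4 rose and 2 fell, beside 10.1% and 10.3% of all genes. Of the 4, Ccl2 (0.83, adjusted p = 0.00332) was not well above background on any of the 8 arrays. The median difference of -0.02 turned to above 0 after normexp background correction, so the list has no single direction. Cxcl1, a neutrophil chemokine, read -4.78, -4.71 and -4.50 with D361E and between -8.12 and -7.80 with both fragments, where no array was well above background. For such a gene the fold is given as a bound, against the dimmest signals that were well above background on the both-fragment arrays: Cxcl1 was at least 2.32-fold higher with D361E (adjusted p = 3.63e-05). It was not well above background on any void array either.

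Cxcl10, a chemokine for T cells, read 3.11, 3.07 and 3.16 with D361E and 1.42, 1.58, 1.51, 1.43 and 1.41 with both fragments. The arrays of each group lay close together and the groups far apart (difference 1.65 ± 0.07 SE, adjusted p = 2.35e-10, 3.13-fold). Both forms stood above void plasmid (0.82, 0.61 and 0.48), D361E by 2.48 (adjusted p = 9.3e-12) and both fragments by 0.84 (adjusted p = 4.08e-07). Csf1, the macrophage growth factor, was higher by 1.04 ± 0.22 (adjusted p = 0.00307), and the size depended on the arrays: 1.44 against both-fragment arrays 1 to 3 and 0.42 against arrays 4 and 5.

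Ccl5, another T-cell chemokine, went the other way. It read 0.22, 0.93 and 0.42 with D361E and 3.35, 3.27, 3.14, 2.81 and 3.02 with both fragments, a difference of -2.60 ± 0.15 (SE, adjusted p = 9.25e-09, 6.05-fold lower). The void arrays, at -0.09, 0.01 and 0.25, lay with D361E: both fragments stood 3.06 above void (adjusted p = 1.35e-09) and D361E 0.47 (adjusted p = 0.0864). Cx3cl1, the membrane-bound chemokine fractalkine, showed the same order of groups at a smaller size: -3.19, -2.82 and -2.98 with D361E against -1.75, -1.97, -1.85, -1.64 and -1.45 (difference -1.27 ± 0.14 SE, adjusted p = 7.64e-06).

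Of the 15 measured NF-kB survival genes, 4 rose and 4 fell, beside 10.1% and 10.3% of all genes, and after median scaling 1 rose and 1 fell. Bcl2l1, which encodes the anti-apoptotic protein BCL-XL, read 3.59, 3.32 and 3.45 with D361E and 4.96, 5.09, 5.06, 4.08 and 4.08 with both fragments. D361E was lower than every both-fragment array (difference -1.20 ± 0.21 SE, adjusted p = 0.000593), by -1.59 against arrays 1 to 3 and by -0.63 against arrays 4 and 5. Birc3, encoding the ubiquitin ligase cIAP2, was higher by 1.73 ± 0.41 (adjusted p = 0.00594), but it was well above background on 1 of the 3 D361E arrays and on none with both fragments, and against both-fragment arrays 4 and 5 alone the call was lost (adjusted p = 0.117). Cflar (0.39 ± 0.11), encoding the caspase-8 inhibitor c-FLIP, and Ier3 (0.25 ± 0.08) were slightly higher (adjusted p = 0.0142 and 0.0384). The other Cflar probes gave 0.05 ± 0.06 and 0.17 ± 0.13, and with the mean of probes its call was lost (0.20, adjusted p = 0.0616). Traf5 and Gadd45b were lower, by -0.87 and -0.36 (adjusted p = 0.0345 and 0.0156). These 4 calls rested on single arrays: Cflar lost its call without D361E array 2 (adjusted p = 0.0514), Gadd45b without D361E array 1 or 3 (up to 0.0837), Traf5 without D361E array 1 or 3 or both-fragment array 4 or 5 (up to 0.129), and Ier3 without any D361E array or both-fragment array 1, 4 or 5 (up to 0.142).

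Among 16 measured genes of the IKK complex and TNF receptor signalling, 5 rose and 2 fell, beside 10.1% and 10.3% of all genes, with a median of 0.12. After median scaling 1 rose and 1 fell, and in the fit of only the 8 arrays none rose and 1 fell. Ikbke, an IKK-related kinase gene, read -2.41, -2.08 and -2.27 with D361E, -5.70, -5.44 and -5.34 on both-fragment arrays 1 to 3, and -2.71 and -2.63 on arrays 4 and 5. The groups did not overlap, but nearly all of the difference of 2.11 ± 0.58 (adjusted p = 0.0166) came from arrays 1 to 3: against those it was 3.24, and against arrays 4 and 5 it was 0.41. The call was lost without D361E array 2 (adjusted p = 0.0587) or array 3 (adjusted p = 0.0531). Rnf31, a subunit of the linear ubiquitin ligase, and Ikbkb were higher by 0.42 ± 0.11 and 0.20 ± 0.06 (adjusted p = 0.0129 and 0.0253), and neither passed against arrays 4 and 5 alone (adjusted p = 0.231 and 0.111) or without D361E array 2 (adjusted p = 0.0735 and 0.0926; Ikbkb also without array 3, 0.0847). Tnfrsf1a, the main TNF receptor, was lower by -0.38 ± 0.07 (adjusted p = 0.00132), as was Ripk1 by -0.25 ± 0.08 (adjusted p = 0.0265; 0.176 without D361E array 1).

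The genes with the largest differences lay mostly outside the NF-kB lists. By the fixed rule these are the 12 largest in each direction among called, non-overlapping genes that were well above background on every array of the higher group. Several lie at background in the lower group, so their order is not exact. Tnfaip3 was among those higher with D361E. The others were Kcnj13, Tubb2b, Pla2g4a, Trpm1, Krba1, Sgk2, Mthfd2l, Fstl1, Cck, Lgals3 and Capn6.

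Some of these were high with D361E on all 3 arrays and not well above background on any both-fragment array. Krba1 read -3.23, -2.89 and -3.04 with D361E and between -8.01 and -7.70 with both fragments (at least 7.09-fold, adjusted p = 7.81e-15), and its void arrays were higher still, at -0.82, -0.92 and -0.81, so that both forms lay below void. Mthfd2l, a mitochondrial folate enzyme gene, was at least 6.98-fold higher than with both fragments (adjusted p = 7.62e-09) and did not differ clearly from void with D361E (-0.28, adjusted p = 0.645). Cck, the gene of the peptide hormone cholecystokinin, read -2.63, -2.63 and -3.09 with D361E against -8.13 to -6.91 (at least 8.56-fold, adjusted p = 3.46e-07). Of these, Cck was also above void plasmid with D361E (2.38, adjusted p = 0.000906).

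Capn6, an atypical calpain gene, was well above background with D361E only: -4.03, -3.55 and -4.00 against -8.34 to -8.00 with both fragments and -8.15 to -7.83 with void plasmid. It was at least 4.05-fold higher than with both fragments (adjusted p = 4.83e-11). Tubb2b, a beta-tubulin gene, read -2.36, -1.89 and -2.22 against -7.93 to -7.12 (at least 13.3-fold, adjusted p = 4.19e-11). Tubulin genes are near-identical in places, and a second, dimmer Tubb2b probe showed no such difference (0.06 ± 0.61), so the value of this gene is uncertain.

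Kcnj13, an inwardly rectifying potassium channel gene, read 0.80, 0.60 and 0.29 with D361E, -5.54, -5.67 and -7.03 on both-fragment arrays 1 to 3, and -3.99 and -3.79 on arrays 4 and 5 (difference 5.77 ± 0.51 SE, adjusted p = 9.36e-07; 2 of the 5 both-fragment arrays were well above background). Its second probe gave 4.92 ± 0.43. Trpm1, a melanocyte channel gene, read 3.81, 3.48 and 3.50 against -3.37, -3.09, -3.31, 1.09 and 1.04 (5.13 ± 0.89, adjusted p = 0.000604). D361E was above every both-fragment array for both genes, but the size varied with the set: for Trpm1 it was 6.86 against arrays 1 to 3 and 2.53 against arrays 4 and 5. Its second probe gave 3.61 ± 0.70 and the third 0.27 ± 0.38, so the probes disagree.

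Sgk2, a serine/threonine kinase gene, read -0.96, -0.54 and -0.73 with D361E, -7.78 to -6.47 on both-fragment arrays 1 to 3 and -3.24 and -3.20 on arrays 4 and 5 (4.75 ± 0.80, adjusted p = 0.000487). Fstl1, a secreted glycoprotein gene, followed the same order, 4.57 ± 0.69 higher (adjusted p = 0.000194), and each was well above background on 2 of the 5 both-fragment arrays. Lgals3, encoding galectin-3, showed the reverse order of the both-fragment sets: 4.47, 4.42 and 4.45 with D361E, 1.75, 1.77 and 1.67 on arrays 1 to 3, and -2.72 and -2.58 on arrays 4 and 5 (4.47 ± 0.89, adjusted p = 0.00187). For all 3 genes D361E lay close to void plasmid (differences of 0.26 to 0.59, adjusted p from 0.725 to 0.926).

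Pla2g4a, the cytosolic phospholipase A2 gene, met the rule with little room. D361E read 0.34, 0.33 and 0.35, both-fragment arrays 4 and 5 read -0.18 and -0.18, and arrays 1 to 3 read -7.95, -7.96 and -8.06, not well above background. The difference was 8.33 against arrays 1 to 3 and 0.52 against arrays 4 and 5. Leaving out any 1 of the D361E arrays or of both-fragment arrays 1 to 3 ended the call in the full comparison (adjusted p = 0.0662 to 0.0832).

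**Figure D3:**
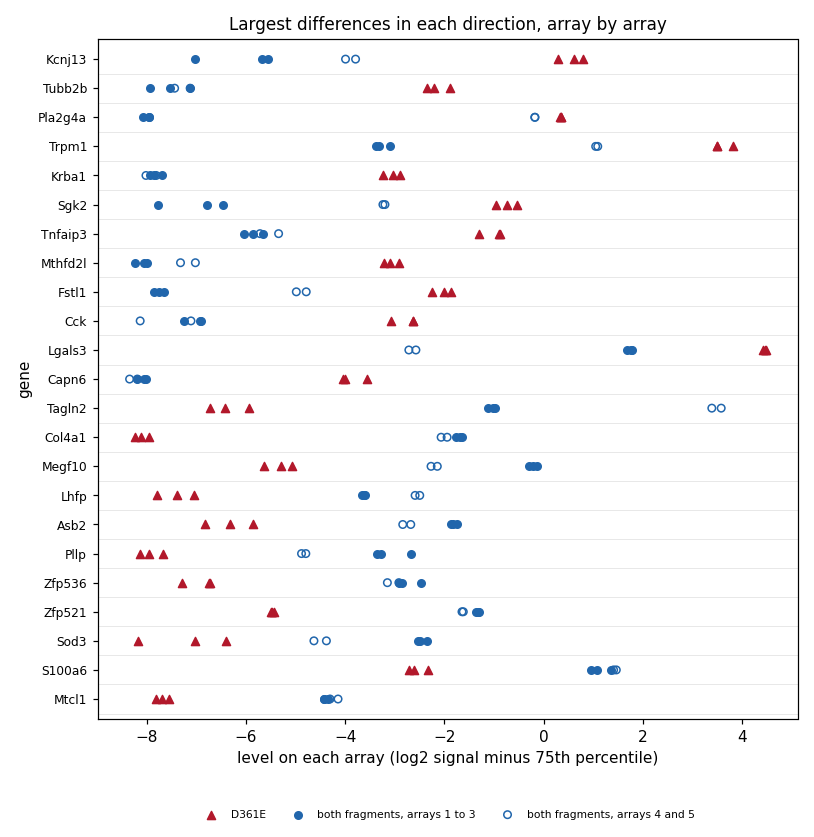
The genes with the largest differences in each direction (rows; 1 of those lower with D361E is not shown), with the level on each D361E array (triangles), on both-fragment arrays 1 to 3 (filled circles) and on arrays 4 and 5 (open circles), as log2 signal minus the 75th percentile. In the upper rows the triangles lie to the right of every circle and in the lower rows to the left; Pla2g4a and Lgals3 show how far the circles themselves can be apart.

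Among the genes lower with D361E, Tagln2, which encodes an actin-binding protein, had the largest fitted difference. It read -6.42, -5.93 and -6.71 with D361E, -1.03, -0.98 and -1.12 on both-fragment arrays 1 to 3 and 3.57 and 3.38 on arrays 4 and 5 (-7.12 ± 0.94, adjusted p = 5.41e-05), and 1 of the 3 D361E arrays was well above background. A second probe gave -4.17. D361E was also below void plasmid (-5.46, adjusted p = 0.0024), and both fragments stood 1.66 above it without passing the test (adjusted p = 0.23).

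Col4a1, a chain of basement membrane collagen IV, was well above background on all 5 both-fragment arrays (-1.68, -1.77, -1.65, -1.95 and -2.07) and all 3 void arrays (-2.89, -2.63 and -2.60) and on no D361E array (-7.95, -8.23 and -8.10). It was at least 17.4-fold lower with D361E (adjusted p = 6.83e-15), and its both-fragment sets differed little. Asb2 and Mtcl1 had the same order, with both fragments near void and D361E below: Asb2, well above background on 1 of the 3 D361E arrays, by -4.14 ± 0.24 (adjusted p = 1e-08), and Mtcl1, which was not well above background with D361E, at least 3.07-fold lower (adjusted p = 9.93e-09).

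S100a6, the calcium-binding protein calcyclin, read -2.62, -2.32 and -2.71 with D361E and 1.36, 1.07, 0.95, 1.41 and 1.46 with both fragments (-3.80 ± 0.16, adjusted p = 2.35e-10, 13.9-fold lower). Void plasmid (-1.71, -1.06 and -1.01) lay between, with both fragments 2.51 above it (adjusted p = 2.29e-08). Zfp521, a zinc finger gene, was not well above background on any void array and read -5.49, -5.43 and -5.47 with D361E against -1.31, -1.33, -1.37, -1.62 and -1.65 with both fragments (-4.01 ± 0.40, adjusted p = 2.76e-06).

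For Megf10, an engulfment receptor gene, both fragments likewise stood above both D361E and void (D361E minus both fragments -4.31 ± 0.43, adjusted p = 3.19e-06). Pllp, encoding plasmolipin, was well above background with both fragments and with neither D361E nor void (at least 4.43-fold lower with D361E, adjusted p = 2.03e-06). Zfp536 (at least 8.49-fold lower, adjusted p = 3.17e-08), Lhfp (at least 6.72-fold, adjusted p = 9.93e-09) and the extracellular superoxide dismutase gene Sod3 (at least 6.35-fold, adjusted p = 6.41e-05) were not well above background with D361E.

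Feedback genes of ERK signalling were lower with D361E. Of 11 measured ERK feedback genes, 6 fell, beside 10.3% of all genes, and none rose. After median scaling 5 fell, and in the fit of only the 8 arrays 4 fell. Every one of the 11 had a difference below 0 (-2.40 to -0.20), with a median of -0.43 that stayed below 0 under each scaling. Etv4 and Etv5 encode ETS transcription factors induced by ERK. Etv4 read -3.46, -3.63 and -3.46 with D361E and -0.92, -1.03, -0.71, -1.43 and -1.48 with both fragments (-2.40 ± 0.20, adjusted p = 4.96e-07). Etv5 read 0.69, 0.80 and 0.77 against 3.21, 3.09, 3.28, 2.03 and 2.13 (-1.996 ± 0.25, adjusted p = 3.7e-05). In both the D361E arrays lay with void plasmid: D361E minus void was 0.48 (adjusted p = 0.199) and -0.01 (adjusted p = 0.994), and both fragments minus void 2.88 (adjusted p = 6.24e-08) and 1.99 (adjusted p = 3.5e-05).

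Dusp6, the ERK phosphatase, read 3.41, 3.37 and 3.40 with D361E and 4.14, 4.14, 4.14, 3.92 and 4.04 with both fragments (-0.68 ± 0.06, adjusted p = 3.46e-07). The spread within each group was far smaller than the gap. Against both-fragment arrays 1 to 3 alone, 10 of the 11 genes were called lower, and against arrays 4 and 5 alone, 5 were.

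The immediate early genes, which growth signals switch on within minutes, followed: 10 of 17 measured fell, beside 10.3% of all genes. Another 2 rose, a share near the 10.1% of all genes, and the median was -0.80 (below 0 under each scaling). After median scaling 9 fell and none rose. Egr1 read -5.77, -5.63 and -6.13 with D361E and -1.58, -1.57, -1.47, -3.99 and -3.89 with both fragments (-3.34 ± 0.50, adjusted p = 0.000179, with 2 of the 3 D361E arrays well above background); on the void arrays it was not well above background. Fos read -4.37, -4.84 and -4.71 against -2.14, -2.08, -2.19, -2.94 and -3.18 (-2.14 ± 0.23, adjusted p = 6.81e-06). In both genes the D361E arrays were lowest, and both-fragment arrays 1 to 3 stood above arrays 4 and 5.

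Jun read 1.16, 1.66 and 1.28 with D361E and 3.20, 3.02, 2.94, 2.10 and 2.24 with both fragments (-1.33 ± 0.20, adjusted p = 0.000205). Unlike Egr1, its void arrays (2.74, 2.89 and 2.93) lay among the both-fragment arrays, and D361E was below void by -1.48 (adjusted p = 0.000368). Klf6 and Junb were higher with D361E, by 0.37 ± 0.05 (adjusted p = 7.23e-05) and 0.77 ± 0.24 (adjusted p = 0.0309). The Junb call was lost without D361E array 1 or 3 or both-fragment array 1, 2 or 5 (adjusted p = 0.0521 to 0.125).

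Of 31 measured cell cycle genes 9 fell, beside 10.3% of all genes, and 2 rose, with a median of -0.16. After median scaling 3 fell and none rose, and in the fit of only the 8 arrays 2 fell and none rose. Ccnd1, encoding cyclin D1 that links growth signals to the cell cycle, read 2.32, 2.50 and 2.48 with D361E and 4.33, 4.22, 4.34, 4.15 and 4.03 with both fragments. It was 3.43-fold lower (-1.78 ± 0.08, adjusted p = 4.01e-10), with void plasmid between, at 3.26, 3.52 and 3.54: D361E minus void was -1.004 (adjusted p = 1.18e-06) and both fragments minus void 0.78 (adjusted p = 3.31e-06). The mitotic genes differed less: Aurka by -0.56 ± 0.08 (adjusted p = 6.02e-05) and Ccnb2 by -0.36 ± 0.07 (adjusted p = 0.00187), while Ccnb1 was higher by 0.18 ± 0.04 (adjusted p = 0.00784) and Ccnd3 by 0.20 ± 0.05 (adjusted p = 0.00756).

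Matrix and adhesion genes fell as well. Of 21 measured collagen, laminin and integrin genes, 11 were lower and did not overlap, beside 8.86% of all genes, and 1 was higher with overlapping groups (median -0.39, below 0 under each scaling). Beside Col4a1, its partner Col4a2 read -5.01, -4.84 and -5.38 with D361E and -3.84, -3.96, -3.80, -2.99 and -2.93 with both fragments (-1.57 ± 0.24, adjusted p = 0.000214). Itgb5, an integrin subunit that binds vitronectin, read 0.61, 0.91 and 0.88 against 2.51, 2.38, 2.46, 1.97 and 1.98 (-1.46 ± 0.13, adjusted p = 6.73e-07). For Itgb5 the both-fragment arrays did not differ clearly from void (0.03, adjusted p = 0.92), and D361E was 1.44 below it (D361E minus void -1.44, adjusted p = 4.15e-06).

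Of 20 measured mesenchymal and TGF-beta response genes, 6 fell, beside 10.3% of all genes, and 2 rose, a share near the 10.1% of all genes. Ccn1, a matrix-associated signalling protein, read 0.70, 0.48 and 0.52 with D361E and 2.11, 2.04, 2.22, 1.82 and 1.90 with both fragments (-1.45 ± 0.11, adjusted p = 9.76e-08). Its relative Ccn2 went the other way, at 1.50, 1.34 and 1.34 against 0.71, 0.51, 0.66, -0.14 and -0.09 (1.06 ± 0.16, adjusted p = 0.000224), and both genes stood above void plasmid in both groups. Fibronectin, Fn1, was lower by -1.53 ± 0.38 (adjusted p = 0.00978), which came mainly from both-fragment arrays 1 to 3 (-2.27) and less from arrays 4 and 5 (-0.41). Thbs1, encoding thrombospondin-1, was lower by -1.45 ± 0.30 (adjusted p = 0.00249), and Tgfbi was higher by 1.97 ± 0.38 (adjusted p = 0.00144).

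All 5 measured galectin genes were called, 3 higher and 2 lower, beside 10.1% and 10.3% of all genes. After median scaling only 1 was higher and 1 lower. Lgals3, Lgals4 (0.32 ± 0.11, adjusted p = 0.0421) and Lgals8 (0.24 ± 0.06, adjusted p = 0.0124) were higher, and Lgals1 (-0.80 ± 0.13, adjusted p = 0.000286) and Lgals9 (-0.55 ± 0.19, adjusted p = 0.046) lower. The other Lgals4 probes gave 0.14 ± 0.10 and 0.12 ± 0.15, and with the mean of probes its call was lost (0.19, adjusted p = 0.285). Lgals1, encoding galectin-1, read 6.76, 7.29 and 6.99 with D361E and 7.69 to 7.91 with both fragments. The calls of Lgals4, Lgals8 and Lgals9 were lost on leaving out single arrays (Lgals4 without D361E array 2 or 3 or both-fragment array 2, 3 or 4, Lgals8 without D361E array 1, and Lgals9 without any D361E array or both-fragment array 3, 4 or 5; adjusted p = 0.0513 to 0.17). Among 13 tubulin genes, Tubb6 was lower at 3.51, 3.88 and 3.71 against 5.31, 5.27, 5.28, 5.05 and 5.06 (-1.50 ± 0.08, adjusted p = 5.75e-09).

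Genes of the melanocyte lineage were higher with D361E. Of 20 measured, 10 rose without overlap, beside 8.6% of all genes, and 1 fell (median 0.25, above 0 under each scaling), and the same number rose against arrays 4 and 5 alone (10) while 9 did against arrays 1 to 3. Kit, the stem cell factor receptor, read 0.03, 0.05 and -0.01 with D361E and -2.17, -2.36, -2.17, -0.87 and -0.81 with both fragments (1.70 ± 0.30, adjusted p = 0.000642). Met, the hepatocyte growth factor receptor, read 0.48, 0.83 and 0.44 against -0.49, -0.72, -0.63, -0.12 and 0.04 (0.97 ± 0.14, adjusted p = 0.000167). Gpnmb, a melanosomal glycoprotein, was lower by -0.26 ± 0.06 (adjusted p = 0.00594). The lineage factors Mitf (0.09) and Sox10 (-0.12) and the pigment genes Tyrp1 (0.06), Dct (0.06) and Pmel (0.14) were not called, while Tyr was higher by 0.24.

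Of 25 cholesterol synthesis genes, 12 were called higher, beside 10.1% of all genes, and none lower (median 0.41, above 0 under each scaling). The count depended strongly on the processing: 4 were higher after median scaling, 7 with no scaling and 5 in the fit of only the 8 arrays. It also depended on the both-fragment set: 23 were higher against arrays 1 to 3, and 6 higher and 3 lower against arrays 4 and 5. Hmgcs1, which makes the substrate of HMG-CoA reductase, read 3.73, 4.12 and 3.96 with D361E and 3.23, 3.21, 3.13, 3.49 and 3.57 with both fragments (0.61 ± 0.11, adjusted p = 0.000579). Here void plasmid lay with D361E (difference from void -0.00, adjusted p = 0.995). Lss, lanosterol synthase, was higher by 0.66 ± 0.16 (adjusted p = 0.00777), a call lost against arrays 4 and 5 alone (adjusted p = 0.0855), and Acat2 by 0.66 ± 0.16 (adjusted p = 0.00639).

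**Figure D4:**
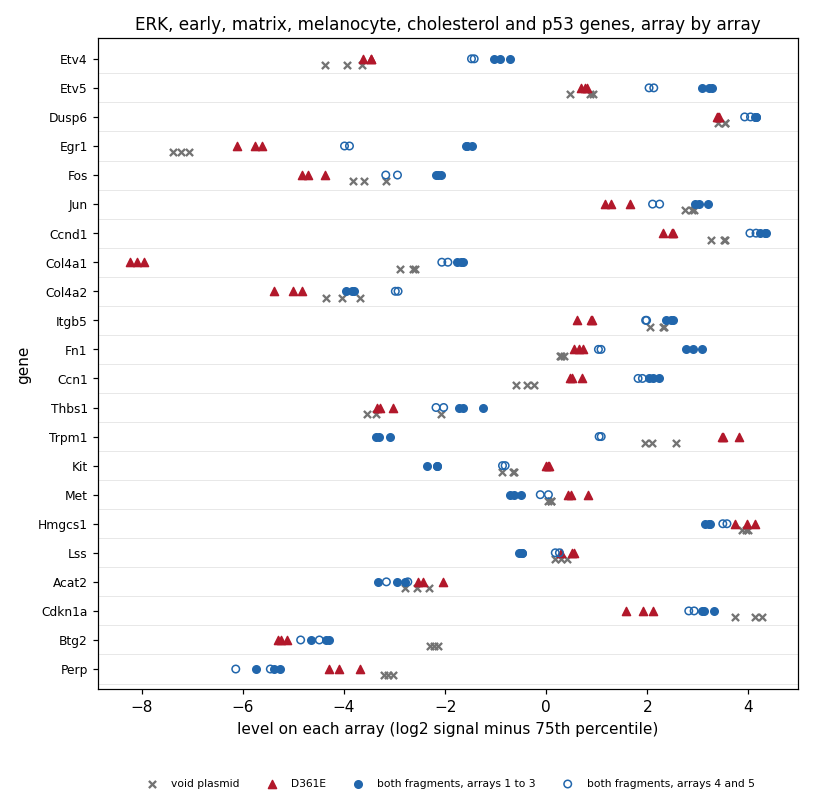
Level of 22 genes of the ERK, early response, matrix, melanocyte, cholesterol and p53 groups (rows) on each array, as log2 signal minus the 75th percentile, with symbols for D361E (triangles), both-fragment arrays 1 to 3 (filled circles), both-fragment arrays 4 and 5 (open circles) and void plasmid (crosses). Etv4 and Etv5 show D361E beside void and both fragments to the right, while Jun, Col4a1 and Itgb5 show D361E to the left of all other arrays drawn.

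Of 25 measured p53 targets, 11 fell and 3 rose (median -0.11), beside 10.3% and 10.1% of all genes. After median scaling 7 fell and 2 rose, and in the fit of only the 8 arrays 5 fell and 1 rose. Cdkn1a, the gene of the cell cycle inhibitor p21, read 1.57, 2.11 and 1.92 with D361E and 3.12, 3.07, 3.31, 2.82 and 2.92 with both fragments (-1.18 ± 0.15, adjusted p = 4.47e-05; a second probe gave -0.44). Both lay below void plasmid (3.73, 4.12 and 4.26), D361E by -2.17 (adjusted p = 4.68e-07) and both fragments by -0.99 (adjusted p = 0.000205). Btg2, an antiproliferative gene, had the same order: -0.70 ± 0.13 between the forms (adjusted p = 0.000854), with D361E -3.01 and both fragments -2.31 from void (adjusted p = 1.09e-09 and 3.66e-09). Plk2 was lower by -1.10 ± 0.21 (adjusted p = 0.00143) but well above background on only 1 of the 8 arrays. Perp, a desmosome-associated p53 target, and Trp53inp1 were higher, by 1.57 ± 0.31 (adjusted p = 0.00166) and 0.36 ± 0.07 (adjusted p = 0.00148).

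Of 17 measured pro-apoptotic BCL2 family and caspase genes, 5 rose, beside 10.1% of all genes, and 2 fell, a share near the 10.3% of all genes. After median scaling 3 rose and none fell. Casp4, an inflammatory caspase gene, read -1.63, -1.16 and -1.48 with D361E and -7.95, -7.07, -3.35, -3.75 and -3.61 with both fragments (3.72 ± 0.86, adjusted p = 0.00569). Its both-fragment values spread widely inside arrays 1 to 3 too, and 3 of the 5 were well above background. Casp6 (0.70 ± 0.06, adjusted p = 8.81e-07) and the BH3-only gene Bmf (1.00 ± 0.11, adjusted p = 1.14e-05) were higher, and Bak1 was lower by -0.22 ± 0.05 (adjusted p = 0.00617).

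The stress responses split. Of 28 unfolded protein and integrated stress response genes, 7 rose and 4 fell, beside 10.1% and 10.3% of all genes (after median scaling 4 and 4). Chac1 (0.93 ± 0.19, adjusted p = 0.00249) and Sdf2l1 (0.73 ± 0.20, adjusted p = 0.0135; lost without D361E array 2, adjusted p = 0.0807) were higher, as was Vldlr (at least 1.53-fold, adjusted p = 0.00718), while the transcription factors Atf3 (-1.19 ± 0.12, adjusted p = 2.99e-06), Cebpb (-0.54 ± 0.10, adjusted p = 0.00143) and Ddit3 (-0.53 ± 0.11, adjusted p = 0.0019) were lower. Atf3 read -3.08, -2.45 and -2.55 with D361E and between -1.53 and -1.49 on all 5 both-fragment arrays. Of 24 measured NRF2 targets, 2 rose and 4 fell, beside 10.1% and 10.3% of all genes. After median scaling none rose and 2 fell, and in the fit of only the 8 arrays none rose and 1 fell. Hmox1, heme oxygenase-1, was higher by 0.83 ± 0.21 (adjusted p = 0.011), but not against arrays 4 and 5 alone (0.24, adjusted p = 0.104), nor without D361E array 2 (adjusted p = 0.0546).

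Of 27 measured glycolysis and hypoxia genes, 7 fell, beside 10.3% of all genes, and 2 rose, under the 10.1% of all genes. After median scaling 5 fell and none rose. Pfkfb3, which makes the activator of phosphofructokinase, read 0.06, 0.11 and 0.10 with D361E and 1.04, 1.00, 0.98, 0.99 and 1.04 with both fragments, a gap far larger than either spread (-0.92 ± 0.04, adjusted p = 4.57e-10). Void plasmid (0.06, 0.11 and 0.03) lay with D361E. Hk1, hexokinase 1, was lower by -1.19 ± 0.19 (adjusted p = 0.000266) and Pkm, pyruvate kinase, by -0.68 ± 0.13 (adjusted p = 0.00104).

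Interferon-stimulated genes had no common direction: of 28 measured, 4 rose and 7 fell, beside 10.1% and 10.3% of all genes, and against both-fragment arrays 1 to 3 alone 12 rose and 6 fell, whereas against arrays 4 and 5 alone 3 rose and 17 fell. Genes lower against both sets included Ifit1 (-1.21 ± 0.13, adjusted p = 4.48e-06) and Gbp2 (-0.95 ± 0.10, adjusted p = 6.11e-06). Rsad2, encoding viperin, was higher by 1.65 ± 0.44 (adjusted p = 0.0141), by 2.50 against arrays 1 to 3 and by 0.38 against arrays 4 and 5, and the call was lost without D361E array 2 (adjusted p = 0.0576). Rtp4 was lower by -0.97 ± 0.29 (adjusted p = 0.026), lost without D361E array 1 or 3 (adjusted p = 0.107 and 0.084), and Stat2 and Irf1 were higher by 0.51 ± 0.09 and 0.45 ± 0.09 (adjusted p = 0.000645 and 0.00204).

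For MHC class I presentation, 3 of 15 measured genes rose, beside 10.1% of all genes, and none fell. Tapbp, encoding tapasin that loads peptide onto class I molecules, read 1.05, 1.58 and 1.34 with D361E and 0.42, 0.40, 0.40, 0.30 and 0.41 with both fragments (0.94 ± 0.09, adjusted p = 1.44e-06). H2-K1, a class I heavy chain from a family of near-identical genes, was higher by 1.56 ± 0.45 (adjusted p = 0.0214), by 2.42 against arrays 1 to 3 and by 0.27 against arrays 4 and 5 (adjusted p = 0.191), and the call was lost without any 1 of the D361E arrays or both-fragment array 3 (adjusted p = 0.0507 to 0.0698). Against arrays 1 to 3 alone 10 genes of the list rose and 1 fell, and against arrays 4 and 5 alone 1 rose and 4 fell.

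Of 9 measured STAT5 targets, 2 rose and 2 fell, beside 10.1% and 10.3% of all genes. The cytokine-signalling inhibitors Socs2 (0.67 ± 0.07, adjusted p = 6.11e-06) and Socs3 (0.41 ± 0.05, adjusted p = 9.35e-06) were higher, and the repressor Bcl6 was lower (-0.51 ± 0.09, adjusted p = 0.000909). The lists of 20 cytosolic aminoacyl-tRNA synthetases (1 higher) and 26 cytosolic ribosomal protein genes (2 lower) had shares of calls under those of all genes, with medians of -0.04 and -0.06 that turned to above 0 after normexp correction.

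**Figure D5:**
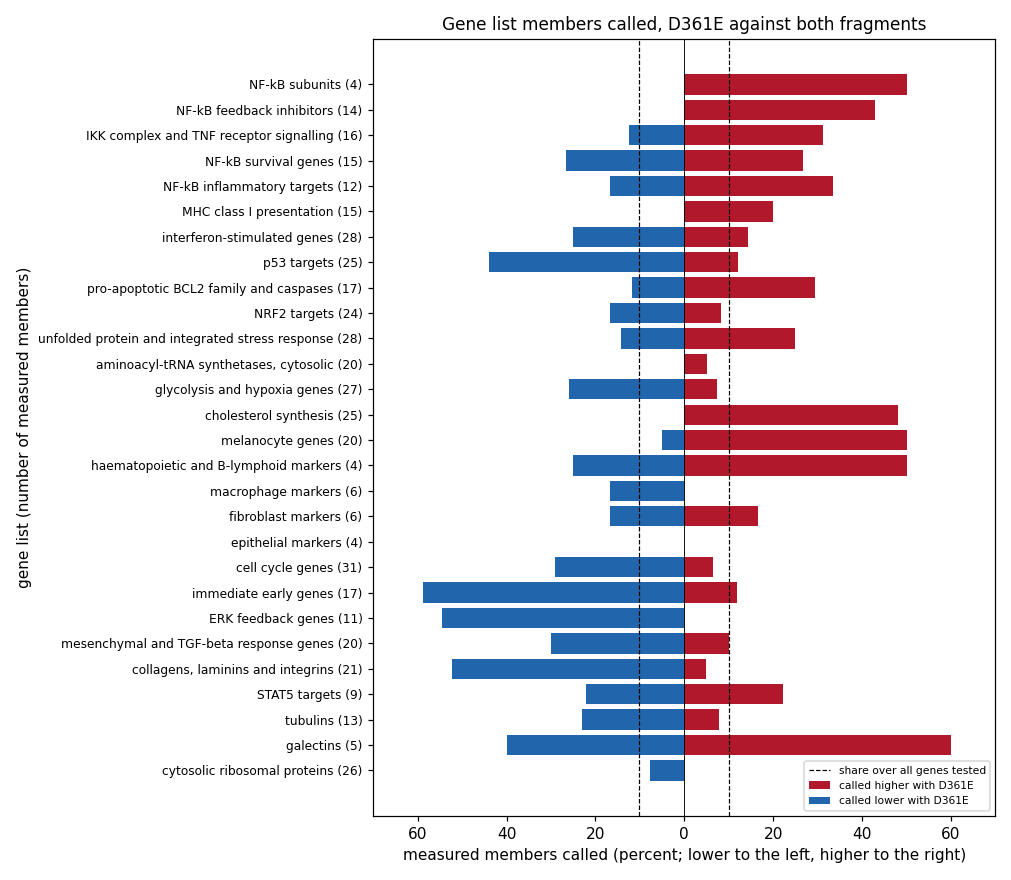
Percent of the measured members of each of the 28 gene lists that were called higher (red, to the right) or lower (blue, to the left) with D361E than with both fragments; the number of measured members stands in brackets and the dashed lines mark 10.1% and 10.3%, the shares over all genes. The NF-kB subunits and inhibitors, melanocyte and cholesterol lists reach farther right, and the immediate early, ERK, matrix and p53 lists farther left. The galectin (3 of 5 members) and haematopoietic (2 of 4) lists reach at least as far right as any of these. Lists of 4 to 6 members rest on few genes.

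Markers of other cell types passed the filter less often than melanocyte genes. Of 20 haematopoietic and B-lymphoid markers, 16 did not pass the filter, among them Ptprc, Cd79a, Cd79b, Ikzf1 and Spi1, and the summed level of the other 4, as a mean log2 level, was -2.86 to -2.73 with D361E, -3.87 to -3.53 with both fragments and -4.20 to -3.81 with void plasmid. Blnk, a B-cell adaptor, was well above background with D361E only (at least 3.47-fold higher, adjusted p = 1.42e-07), Coro1a was higher by 1.65 ± 0.24 (adjusted p = 0.000149), and Lcp1 lower by -1.53 ± 0.11 (adjusted p = 6.25e-08). Of 15 macrophage markers 6 passed the filter and Adgre1 did not, and 5 were well above background on all 8 arrays. The range of the mean level was -2.72 to -2.31 with D361E and -2.45 to -2.11 with both fragments. Cd68 was lower by -1.65 ± 0.14 (adjusted p = 5.18e-07).

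Of 11 fibroblast markers, 6 passed the filter and Col3a1 and Dcn did not, and 2 were well above background on all 8 arrays. Their mean level was -3.60 to -2.93 with D361E and -4.11 to -2.81 with both fragments, with Col1a2 higher by 2.47 ± 0.33 (adjusted p = 6.49e-05) and Postn at least 2.21-fold lower (adjusted p = 2.38e-05). Of 11 epithelial markers, 4 passed, Epcam, Cdh1, Krt8 and Krt18 did not, and none was called (mean level -5.36 to -4.84 against -5.49 to -4.84). The part of other cells in the results was not tested beyond these values, and in bulk RNA fewer cells of a type and less RNA per cell cannot be told apart.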

How the data were processed

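Gene levels were measured in 20 samples of 6 groups on Agilent one-colour arrays; per the file headers, the scanner software was Feature Extraction 10.7.3.1. The authors' deposited values are the scanner's processed signal intensity per spot, background-corrected by that software; the deposited series table held the same intensities. From these, spots flagged as outliers and control spots were left out, spots of a probe averaged, and log2 intensity taken minus each array's 75th percentile. A probe was kept if 3 or more of the 20 arrays read it well above background, with the brightest probe per symbol; symbols came from RefSeq accessions (72.7% of 39429 probes had one). limma 3.58.1 (R 4.3.3; lmFit, eBayes) was fitted over all 20 arrays with Benjamini-Hochberg adjustment over all genes, and its code was tested on simulated data. Signals give no read depth; the number of arrays limits the precision.

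The groups and 28 gene lists (560 members, 554 on the array, 463 measured) were chosen with earlier results of these data known. Named were Rela, the NF-kB subunits and feedback inhibitors, the 12 largest non-overlapping differences per direction, and up to 3 called, non-overlapping members per direction of each other list (131 genes; 1 of them and 1 marker gene are not reported here). Alternatives covered scaling, background correction, filter, probes of a gene, arrays in the fit, variance model, slide and single arrays; normexp used the median signal, and the fits against each set of both-fragment arrays and the values within slides were added after seeing the data.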

Additional observations from a re-analysis of the deposited data

Results flagged for a closer look

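In 4 of the 131 named genes 1 both-fragment array stood apart from the other 4 by Dixon's test, about the rate of chance flags (1 in 20 groups) or below it. The gap to the nearest array, as a share of the group's range, was 0.865 for Ccnb1 (array 2 high, at 4.38 against 4.27 to 4.29), 0.824 for Tapbp (array 4 low, at 0.30 against 0.40 to 0.42), 0.732 for Gadd45b (array 5 high, at -1.34 against -1.69 to -1.60) and 0.725 for Cck (array 4 low, at -8.13 against -7.24 to -6.91). The critical value for 5 arrays is 0.71. In none of these 4 genes did the outlying array overlap with the D361E arrays, and the both-fragment levels of Cck were not well above background.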

How the results depend on the processing

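Called genes numbered 3825 in all. Leaving out single arrays gave 2728 to 4380 calls, 1310 to 2303 of them higher and 1349 to 2115 lower, with 1294 to 1843 and 1327 to 1821 not overlapping. Median scaling gave 1987 (775 higher, 1212 lower; 703 and 1086 not overlapping). No scaling gave 1059 higher, 849 of them not overlapping. Fitting only the 8 arrays gave 1662 (797 higher, 865 lower, all of them not overlapping: 797 and 865). Against both-fragment arrays 1 to 3 alone, 5885 genes were called, 3054 of them higher, with 2994 higher and 2791 lower not overlapping; against arrays 4 and 5 alone, 4409 (2009 higher, 2400 lower). Quantile, normexp, filter, probe, variance and slide alternatives stayed within 1.5 times of each count. Of 121 called named genes, 79 kept their call under every alternative in which they were tested and 42 lost it under at least 1, of which 22 when 1 array was left out. Of the 121 called named genes, only Cycs turned its direction under these alternatives, to 0.1441 with the mean of its probes (adjusted p = 0.142), from -0.15. No paired analysis was possible because the labels give no replicate number that a D361E array shares with a both-fragment array; arrays share slides, and slide as a block is among the alternatives above. Signal near background limits the genes given as "at least".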

Other observations

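In all, 46 genes were well above background on all 3 D361E arrays and on no both-fragment array. Of these, 37 were called and did not overlap, beside 17.5% of all genes, a separation that this choice of genes largely fixes in advance. Of the 37, 31 had a symbol, and some of them are described above. The following were chosen from the rest after their values were seen. Irf4, a transcription factor gene of lymphoid and melanocyte cells, was at least 1.83-fold higher with D361E (adjusted p = 8.8e-10) and was on no void array either. Lifr, the leukemia inhibitory factor receptor, was at least 3.49-fold higher (adjusted p = 7.35e-06), Fap, a fibroblast activation protease gene, at least 2.52-fold (adjusted p = 0.000158), and the nuclear receptor gene Rorb at least 2.67-fold (adjusted p = 1.21e-06). Of the 31 genes, 16 were well above background on all 3 void arrays and 9 on none.

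The reverse held for 28 genes, well above background on all 5 both-fragment arrays and on no D361E array, and 21 of them had a symbol. All 28 were called and did not overlap, which the choice of genes again largely fixes in advance. Among them, again chosen after their values were seen, Hkdc1, a hexokinase-related gene, was at least 5.27-fold lower with D361E (adjusted p = 1.3e-07), Myl9, a myosin light chain gene, at least 3.67-fold (adjusted p = 0.000367), and Apln, encoding the peptide apelin, at least 2.78-fold (adjusted p = 0.000884). Of these 21 genes, 12 were well above background on all 3 void arrays and 4 on none.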
